A study of Mus musculus with 76 samples.

Results

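The nuclear genes for the proteins of the mitochondrial ribosome were described in liver and visceral white adipose tissue (WAT) of mice that carry either allele of a single base in the 3′ untranslated region of Fnip2. Members were all rows of the 2 deposited tables whose symbol starts with Mrpl or Mrps followed by a digit, without the named pseudogenes. There were 77 of them, 50 for the large subunit, 26 for the small subunit and 1, Mrps36, whose protein is now known as a component of the oxoglutarate dehydrogenase complex. A gene was tested in a tissue when its normalized counts averaged 10 or more there, which 73 members did in WAT, among 12798 genes, and 75 in liver, among 11710 genes.

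Fnip2 C/C mice are homozygous for a T-to-C change that was made with CRISPR/Cas9 in C57BL/6 embryos, and they also carry a G-to-C change a few bases away that removes the guide's PAM. Fnip2 T/T mice carry the unedited mouse allele. The study obtained its genotypes from heterozygous breeders, and whether the sequenced mice came from the same crosses is not stated. All mice were female and had free access to food and drink, and the labels give no age. Each library is 1 mouse: for WAT there were 4 C/C and 5 T/T mice, for liver 5 of each, and 6 mice gave both tissues. The edit is present in every tissue, and both genotypes share the strain and the feeding state. How many founder lines the mice came from is not stated. The labels give each library an RNA number, which in WAT is even for every C/C and odd for every T/T mouse. What this numbering stands for is not given, and in WAT it cannot be told apart from genotype. In liver both genotypes have even and odd numbers. QuantSeq reads begin close to the poly(A) tail, so that a gene's count does not grow with transcript length and does not tell its isoforms apart.

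The mitochondrial ribosome makes the handful of respiratory chain subunits that the mitochondrial genome encodes. Its ribosomal RNAs come from the mitochondrial genome, whereas every protein is encoded in the nucleus, made on cytosolic ribosomes and imported. Many of these proteins descend from bacterial ribosomal proteins, and others have no bacterial counterpart and were added during the evolution of mitochondria. White adipocytes hold fewer mitochondria than hepatocytes, but they need them for lipid synthesis and for the turnover of fatty acids.

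WAT libraries held 4180209 to 6277644 recovered reads, and liver libraries 5583041 to 7523200. Summed levels are given in RPM, reads per 1000000 recovered reads of the library. The tissue labels held against markers: 8 hepatocyte genes summed to 95085 to 127194 RPM in liver and to 46.9 to 701 in WAT, where 4 of them were at 0, and 12 adipocyte genes summed to 17356 to 49313 in WAT and to 22.9 to 43.4 in liver, where 5 of them were at 0. The WAT library of C/C mouse 593 stood apart with 5782 RPM from 12 ovary genes, against 7.11 to 28.4 in the other WAT libraries (Amh was at 0 in all), and it had the lowest adipocyte sum. Of the marker lists, 4 had sums in WAT that did not overlap between the genotypes. Red cell genes were at 594 to 813 RPM in C/C and at 1965 to 2588 in T/T mice, endothelial genes at 354 to 552 and 566 to 954, and hepatocyte genes at 46.9 to 129 and 171 to 701. The hepatocyte sum in WAT came mainly from Cyp2e1 (109 to 3340 reads per library, median 517) and Alb (25 to 230, median 166). Apoa1 and Ttr had medians of 4 and 1 reads and the rest of that list was at 0, so the sum does not measure hepatocytes in WAT. Oocyte genes, 6 of 8 at 0, were at 6.03 to 72.6 and 2.39 to 5.38. Outside the marker lists, messenger RNAs of the mitochondrial genome did not overlap either and were at 34575 to 52954 and 75716 to 140780 RPM, and likewise small nucleolar RNAs at 312 to 1627 and 109.6 to 219. The mitochondrial sum did not stand for each of its genes. By the limma test below, 5 of the 13 were higher and 3 lower in C/C mice, beside 15.1% and 17.0% of all genes tested. Their median log2 fold change was 0.15. Sums for macrophages, lymphocytes, fibroblasts, smooth muscle, mesothelium, acinar pancreas, brown fat and uterus overlapped. The part of these differences in the results below was not tested. In bulk tissue, fewer cells of a type and less RNA per cell cannot be told apart.

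In WAT the members moved in both directions. Of the 73 tested, 33 passed limma's Benjamini-Hochberg adjusted p of 0.05, beside 32.1% of all genes tested. Among them 14 were higher in Fnip2 C/C mice, beside 15.1% of all genes, and 19 were lower, beside 17.0%. As shares of the members these counts were 45.2% called, 19.2% higher and 26.0% lower. The median log2 fold change (C/C minus T/T, taken on log2 of the normalized count plus 1) was -0.09 over the members and 0.02 over all genes. The libraries of the genotypes did not overlap for 24 members, 12 in each direction, beside 26.1% of all genes, and all 24 were also called. On the recovered reads, edgeR called 33 members, beside 32.5% of all genes, and DESeq2 35, beside 37.3%. Without mouse 593, limma called 29 members, 13 higher and 16 lower, beside 29.6% of all genes. The count of lower members was 12 without mouse 638 and 11 without mouse 658, where 23.8% and 24.3% of all genes were called in either direction.

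**Figure D1:**
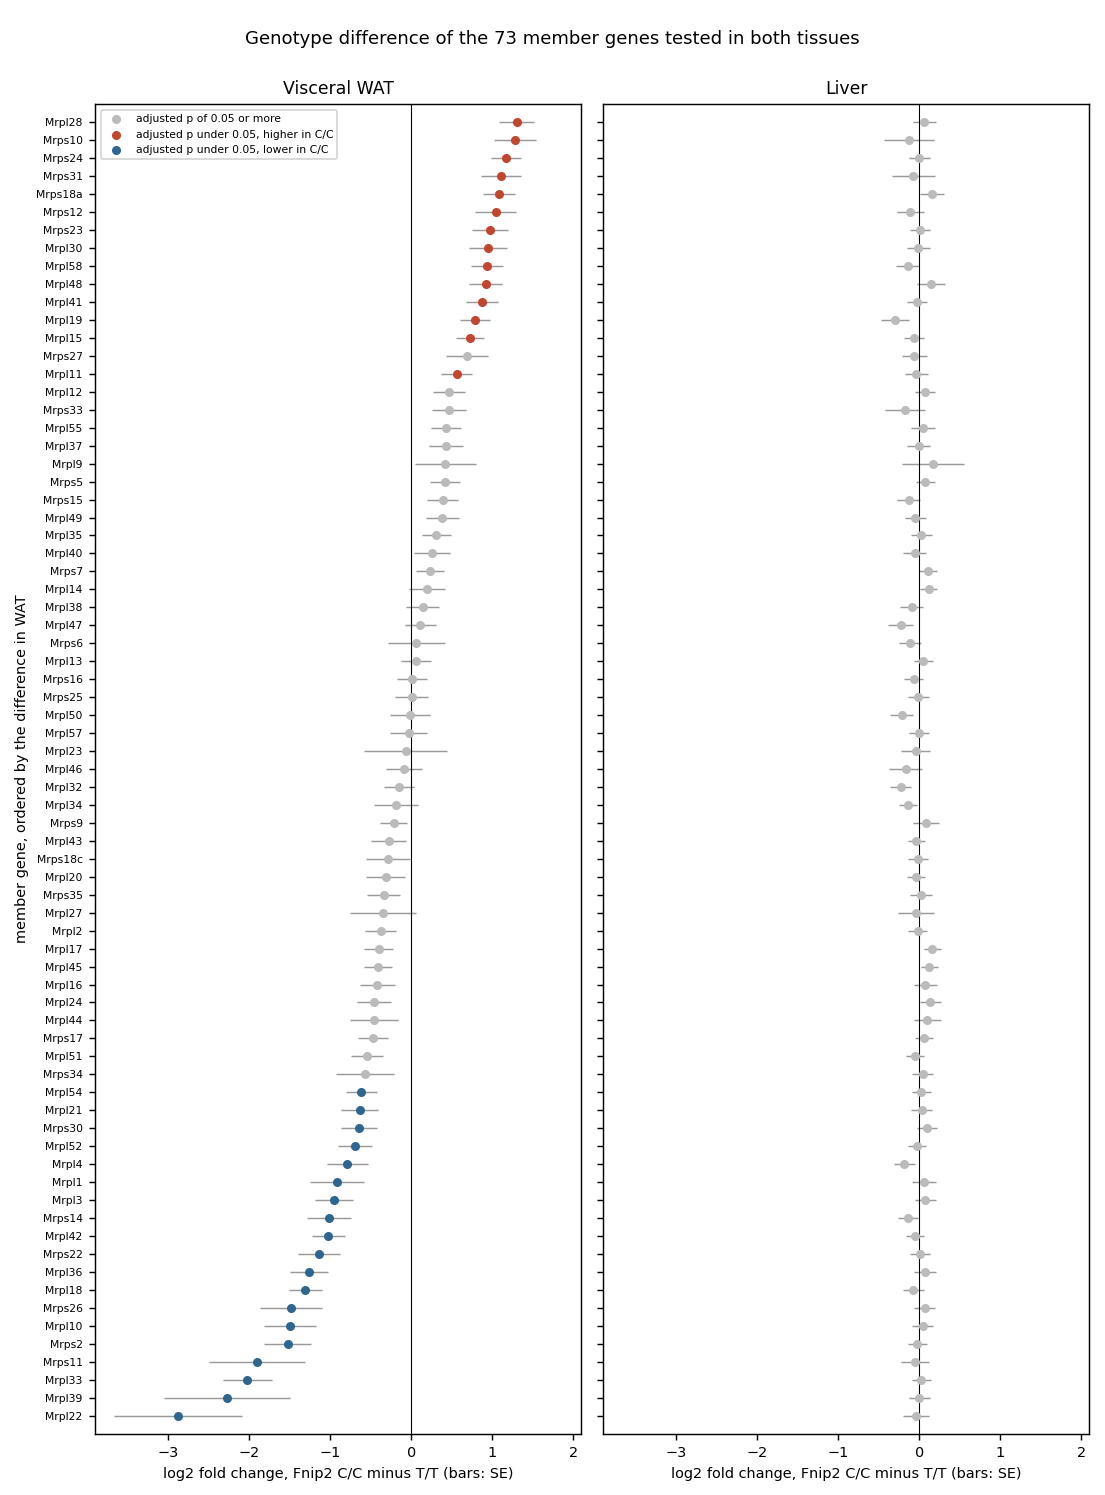
Log2 fold change of C/C over T/T mice (x axis) of each of the 73 members tested in both tissues (y axis, ordered by the value in WAT), in WAT on the left and liver on the right, with bars for the standard error and colour for an adjusted p under 0.05. In WAT 14 members lie to the right and 19 to the left among those called, beside 15.1% and 17.0% of all genes tested. In liver the members stay close to 0 and none was called, beside 0% of all genes tested.

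Falls were found in both subunits. Mrpl33, a small protein with a bacterial counterpart, had normalized counts of 61.2, 48.7, 87.8 and 32.8 in the WAT of C/C mice and 248.6, 169, 151, 251 and 352 in that of T/T mice. Every C/C library lay below every T/T library, and the log2 fold change was -2.03 ± 0.30 (SE), a 4.07-fold lower level (limma adjusted p = 0.000921). Mrpl18, which sits in the central protuberance, fell from 481 ± 34.4 (SD, n = 5) in T/T to 199.5 ± 56.6 (SD, n = 4) in C/C mice. Its libraries read 263, 216, 191 and 128 in C/C and 432, 464, 522, 489 and 499 in T/T mice, which made it 1 of the 2 most even members across T/T WAT with a coefficient of variation of 7.15%. The log2 fold change of Mrpl18 was -1.31 ± 0.20 (limma adjusted p = 0.00106).

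Mrpl10, which anchors the stalk that recruits translation factors, had 55.3, 25.3, 45.5 and 34.0 in C/C and 131, 90.5, 61.4, 114 and 192 in T/T mice. Mouse 609 was the lowest of the T/T libraries and still above all C/C libraries, and the log2 fold change was -1.49 ± 0.32 (limma adjusted p = 0.00462). In the small subunit, Mrps2, with a bacterial counterpart, had 74.1, 43.0, 55.3 and 29.3 against 121, 111, 105, 176 and 211. It fell by 1.53 ± 0.29 on the log2 scale (limma adjusted p = 0.00256), again without overlap. Mrps26, a small subunit protein found only in mitochondrial ribosomes, had 108, 61.8, 74.8 and 19.9 against 143, 206, 142, 189 and 129.6 (log2 fold change -1.48 ± 0.38, limma adjusted p = 0.0121). Its C/C libraries spread widely, with mouse 638 the lowest, and none reached the T/T range.

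The other 3 of the 8 largest falls rested on few reads. Mrpl22, which lines the exit tunnel for the nascent chain, had 5, 0, 0 and 8 reads in the C/C libraries and 38, 15, 6, 25 and 58 in the T/T libraries. The normalized counts were 5.88, 0, 0 and 9.37 against 31.2, 14.6, 6.70, 24.8 and 44.0, so that C/C mouse 638 lay above T/T mouse 609, and the log2 fold change of -2.88 ± 0.79 (limma adjusted p = 0.0154) lay between -3.62 and -1.26 over the alternatives. Mrpl39, a mitochondria-specific protein near the tunnel exit, had 2.35, 3.74, 10.8 and 8.20 against 73.9, 13.6, 4.47, 46.6 and 103, the most uneven T/T libraries of any tested member (coefficient of variation 85.2%). Its log2 fold change was -2.27 ± 0.78 (limma adjusted p = 0.0412), and the call was lost without mouse 590, 593, 607, 638, 657 or 658 (log2 fold changes of -2.45 to -1.84). Mrps11, a small subunit protein with a bacterial counterpart, had 9.41, 3.74, 5.42 and 1.17 against 34.5, 8.76, 13.4, 10.9 and 42.4 (log2 fold change -1.90 ± 0.59, limma adjusted p = 0.0272), and the call was lost without mouse 607 (-1.68), 638 (-1.49) or 658 (-1.61). For all 3 genes, Mrpl22, Mrpl39 and Mrps11, T/T mice 607 and 658 were the highest. Mrpl27, the second most uneven member in T/T WAT and not called, was also highest in those mice, at 100.1 and 139 against 31.1 to 38.0 in the other 3 T/T mice and 42.3 to 48.0 in C/C mice.

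Higher levels in C/C mice were led by genes with ample reads. Mrpl28, a large subunit protein with a bacterial counterpart, had 803, 1019, 1031 and 1222 in C/C WAT and 326, 479.6, 550.3, 303 and 437 in T/T WAT. All C/C libraries were above all T/T libraries, and the log2 fold change was 1.30 ± 0.21, a 2.46-fold higher level (limma adjusted p = 0.00132). Mrps24, a small subunit protein, had 652, 932, 858 and 960.5 against 379, 341, 479, 304 and 387 (log2 fold change 1.17 ± 0.19, limma adjusted p = 0.00121). The lowest C/C library of Mrps24, mouse 590, was still above the highest T/T library. Mrps10, also of the small subunit, had 75.3, 68.3, 77.0 and 93.7 against 42.7, 27.2, 18.98, 35.7 and 39.4 (log2 fold change 1.28 ± 0.26, limma adjusted p = 0.00379).

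Mrps18a is named for the small subunit, but its protein belongs to the large subunit. It had 439.9, 556, 442 and 636 in C/C and 218, 268, 301, 171 and 272 in T/T mice, with no overlap and a log2 fold change of 1.08 ± 0.20 (limma adjusted p = 0.00237). Mrps12, whose protein lies at the decoding centre, had 991, 1463, 994 and 1205 against 449.7, 782, 757, 341 and 593 (log2 fold change 1.04 ± 0.25, limma adjusted p = 0.00837). Mrps23 rose from 542 ± 139.5 (SD, n = 5) to 1046 ± 185 (SD, n = 4), and Mrps31 from 59.3 ± 13.7 to 129.8 ± 34.5, both mitochondria-specific small subunit proteins whose genotypes did not overlap. Their log2 fold changes were 0.97 ± 0.22 and 1.11 ± 0.24 (limma adjusted p of 0.00551 and 0.00518). Mrpl30, with a bacterial counterpart, had 1009, 1313, 1736 and 1718 against 751, 598, 1028, 542 and 848, and C/C mouse 590 lay just below T/T mouse 609 (log2 fold change 0.94 ± 0.23, limma adjusted p = 0.00952).

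**Figure D2:**
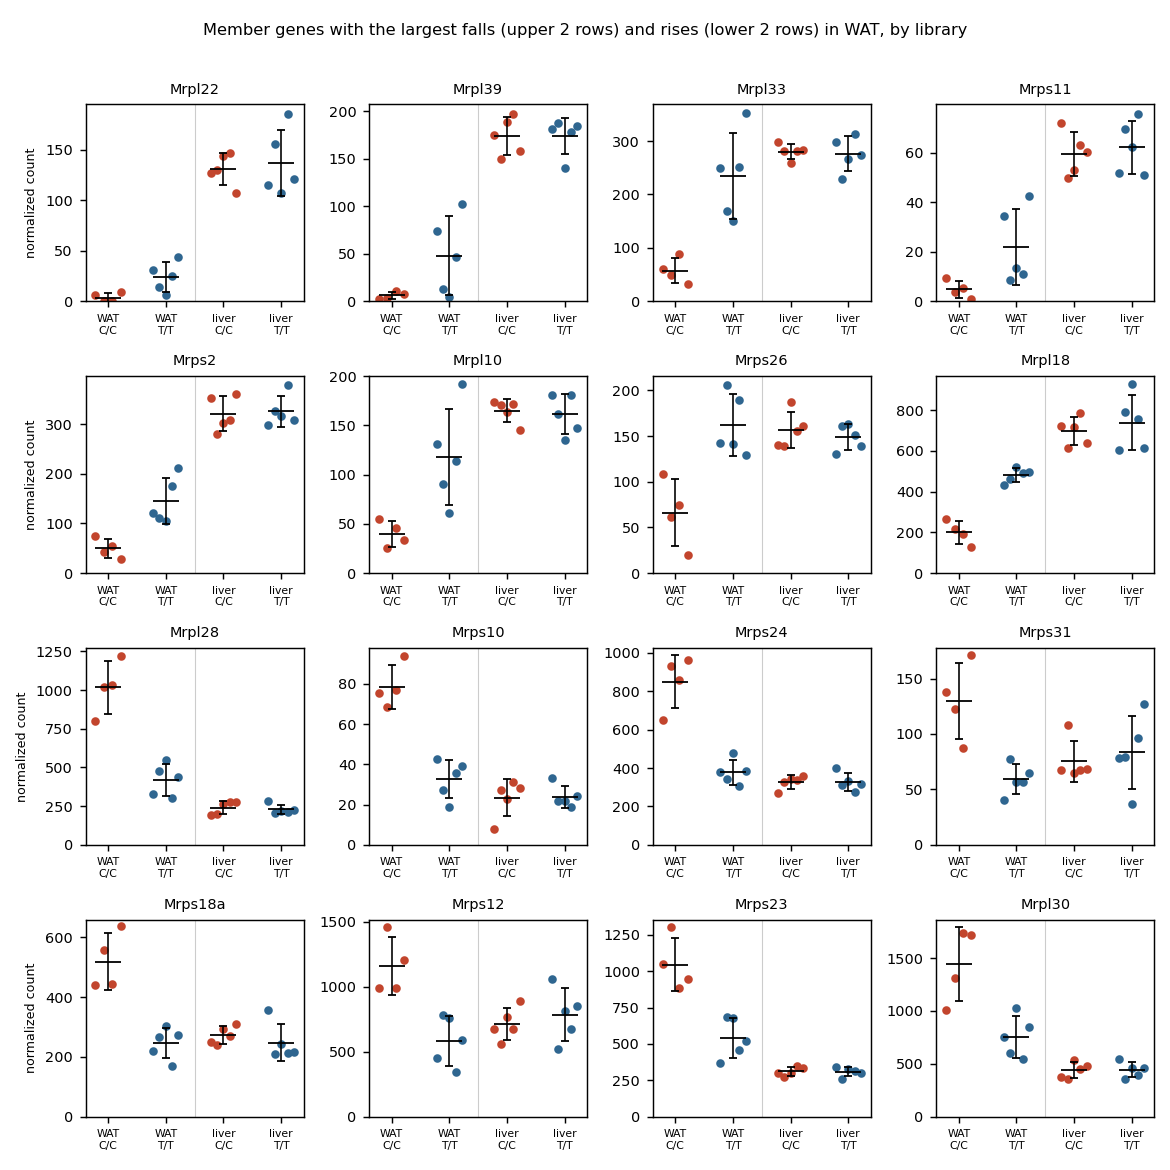
Normalized count (y axis, starting at 0, a different range in each panel) of the 8 members with the largest falls and the 8 with the largest rises in WAT, with 1 point per library, horizontal bars for the group mean and whiskers for the SD. In WAT the genotypes are apart for 12 of the 16 genes, beside 26.1% of all genes tested. These genes were chosen by this contrast in WAT, which favours such separation. In liver the same genes have overlapping libraries, where 0.248% of all genes tested are apart.

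Further proteins of known function were described whatever their test. Mrpl58, a peptidyl-tRNA hydrolase built into the large subunit that can release stalled chains, rose from 311 ± 71.0 to 586 ± 84.2 (log2 fold change 0.93 ± 0.20, limma adjusted p = 0.00449) without overlap. Mrps30, a large subunit protein despite its name, fell from 122 ± 22.8 to 77.6 ± 18.5 (log2 fold change -0.65 ± 0.22, limma adjusted p = 0.0396), and T/T mouse 608, at 81.7, lay among the C/C libraries. That call was lost when any mouse but 590 or 608 was left out (log2 fold changes of -0.65 to -0.53), and with quantile normalization or no filter on low values. Mrpl12, which forms the mobile part of the stalk, had 960.1 ± 124 in C/C and 703 ± 149 in T/T mice (log2 fold change 0.47 ± 0.20) and Mrpl45, which holds the ribosome to the inner membrane, 174 ± 25.1 and 233 ± 32.0 (-0.41 ± 0.17). Both had limma adjusted p-values above the threshold, 0.0836 and 0.0834. Mrpl24, the most even member in T/T WAT (coefficient of variation 6.18%), had 436, 375, 334 and 207 in C/C and 411 to 484 in T/T mice, and its log2 fold change of -0.46 ± 0.21 did not pass (limma adjusted p = 0.101), but passed without mouse 590 (-0.60).

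Calls in both directions were found in either subunit. In the large subunit 9 members were higher and 14 lower of 50 tested, and in the small subunit 5 were higher and 5 lower of 23. Beside these counts and those of the groups below stand 15.1% higher and 17.0% lower over all genes tested in WAT. No group was tested against these shares. Members with a bacterial counterpart gave 8 higher and 12 lower of 43, and mitochondria-specific members 6 and 7 of 30. At the stalk Mrpl10 and Mrpl54 (log2 fold change -0.62 ± 0.19) were lower and Mrpl11 (0.56 ± 0.19) was higher, of 4 tested. The call of Mrpl54 was lost without mouse 590, 608, 638 or 658 (-0.58 to -0.48) and with library weights. That of Mrpl11 was lost when any mouse but 590 or 609 was left out (0.47 to 0.60) and under 4 of the other alternatives. Around the exit tunnel Mrpl22 and Mrpl39 were lower of 8, and no member was higher. These 8 genes summed to 234 ± 29.5 (SD, n = 4) RPM in C/C and 325 ± 46.0 (SD, n = 5) in T/T mice, without overlap. Of the 9 genes listed here for the central protuberance, Mrpl18, Mrpl33 and Mrpl52 were lower and Mrpl48 was higher. Mrpl58, described above, was not on that list. Mrpl52, at -0.69 ± 0.21, lost its call without mouse 599, 607, 638, 657 or 658 (-0.67 to -0.57). Mrpl11, Mrpl48, Mrpl52 and Mrpl54 were singled out here after their values were seen. Reads of Mrpl48 (277 ± 45.3 in C/C, 148 ± 34.3 in T/T) may be shared with its pseudogene Mrpl48-ps, which was itself higher in C/C mice (normalized counts of 104 ± 25.4 against 34.9 ± 8.53, log2 fold change 1.55 ± 0.24, limma adjusted p = 0.00106).

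The summed level of the members overlapped between the genotypes. All 77 together took 4273 to 5430 RPM in C/C and 4146 to 4704 in T/T WAT. The large subunit summed to 3095 ± 277 (SD, n = 4) and 3049 ± 152 (SD, n = 5) RPM, and the small subunit to 1733 ± 209 and 1454 ± 156. The 19 members called lower, which were chosen by this contrast, went from 760 RPM in T/T to 346 in C/C mice, and the 14 called higher from 966 to 1823.

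**Figure D3:**
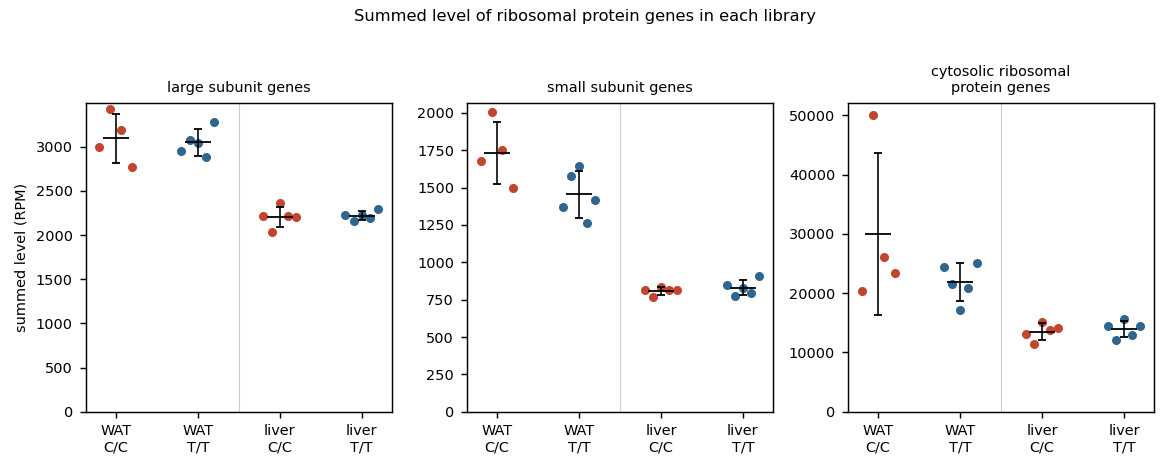
Summed RPM (y axis, starting at 0) of the large subunit members, the small subunit members and the cytosolic ribosomal protein genes in each library, with the group mean and SD. The genotypes overlap in every panel, and the high cytosolic point among the C/C WAT libraries, 50120 RPM, is mouse 593.

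In liver no member passed the test. Limma called 0 of 75 members, beside 0% of all genes tested, and edgeR and DESeq2 on the recovered reads called none either. No member had an unadjusted limma p under 0.05, where 231 of the 11710 genes had one, and no member had libraries that did not overlap, beside 0.248% of all genes. An exact permutation test of single members, also unadjusted, gave p = 0.0238 for Mrpl32 and p = 0.0397 for Mrpl45, and 0.05 or more for the others. The log2 fold changes lay between -0.30 and 0.17 with a median of -0.02, and the median standard error was 0.13, against 0.21 in WAT. Over the 73 members tested in WAT, the median coefficient of variation among T/T mice was 12.4% in liver and 20.8% in WAT, where all genes tested had 20.02% and 23.6%. The most even were Mrpl14, with 776, 783, 775, 805 and 779 in the T/T livers (coefficient of variation 1.56%), and Mrpl52 (2.57%).

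The 4 members with the lowest p in liver all leaned lower in C/C mice. Mrpl19, of the large subunit, had 97.4, 64.3, 123, 103 and 99.3 in C/C livers and 128, 116, 134, 91.1 and 125 in T/T livers (log2 fold change -0.30 ± 0.17, unadjusted limma p = 0.0936). In WAT the same gene was higher in C/C mice (189 ± 31.0 against 109.8 ± 18.05, log2 fold change 0.78 ± 0.19, limma adjusted p = 0.00769). Mrpl32, a large subunit protein known to mature only after cleavage by an inner membrane protease, had 101, 109.5, 101, 106 and 105 against 111, 135, 105, 117 and 149 (log2 fold change -0.23 ± 0.13). Mrpl50 and Mrpl47 had log2 fold changes of -0.21 ± 0.14 and -0.23 ± 0.15. The limma adjusted p of all 4 was 1.00. The most uneven members across the T/T livers were Mrps28 (37.7, 12.4, 0, 35.1 and 39.9) and Mrpl9 (21.7, 34.4, 6.10, 32.9 and 25.1), both near the lower limit for testing.

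The difference between the tissues was tested directly in 1 fit of all 19 libraries. The genotype effect in WAT differed from that in liver for 31 of 73 members (13 above 0 and 18 below), beside 29.2% of the 10404 genes tested in both. Of these, 29 were also called in WAT alone, with which the contrast shares its WAT libraries. The lowest p-values were those of Mrpl33 (difference of effects -2.05 ± 0.32, limma adjusted p = 0.00015), Mrps24 (1.17 ± 0.21, adjusted p = 0.000573) and Mrpl18 (-1.24 ± 0.24, adjusted p = 0.000818). In liver Mrpl33 had 298, 281, 258, 281 and 284 in C/C and 299, 229, 267, 313 and 275 in T/T mice, where its WAT libraries had been apart. Mrps24 had 268, 327, 341, 338 and 361 against 399, 312, 334, 273 and 319 in liver, and Mrpl18 had 723, 616, 716, 786 and 638 against 607, 791, 927, 757 and 613. With the mouse as a block the count was again 31, beside 26.5% of all genes. In the 6 mice that gave both tissues, with the block, it was 14 (5 above 0 and 9 below), beside 12.3% of all genes, and 12 of the 14 were among the 31. The count below 0 was 10 without mouse 607 and 11 without mouse 638 or 658, where 21.8%, 20.7% and 23.4% of all genes were called in either direction.

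The members took 4146 to 4704 RPM in T/T WAT and 2943 to 3205 in T/T liver, 2 totals that depend on how much RNA each tissue makes of other genes. Gene by gene, 55 of 73 members had a higher mean in T/T WAT than in T/T liver, about the share of all genes (7808 of 10404). The median log2 ratio of WAT to liver was 0.45 over the members and 0.74 over all genes. A higher mean in T/T WAT was found for 13 of the 14 members called higher in C/C WAT, 10 of the 19 called lower and 32 of the 40 not called. Mrpl28 was at 91.8 RPM in T/T WAT and 34.0 in T/T liver, and Mrpl22 at 5.42 and 20.4. Over the 73 members the Spearman correlation between the log2 ratio of these T/T levels and the WAT log2 fold change was 0.40. It was 0.24 over all 10404 genes, 0.47 over cytosolic ribosomal protein genes, 0.64 over complex I subunits and 0.50 over subunits of complexes II to V, so that 3 other families had higher values than the members. Both measures use the T/T WAT libraries, and genes are not independent replicates.

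Of 92 other genes of mitochondrial translation tested in 6 lists, 9 were higher and 15 lower in C/C WAT, with a median log2 fold change of -0.15. The share called was 26.1%, beside 32.1% of all genes tested. Over all genes 15.1% were higher and 17.0% lower, and these shares stand beside the counts of each list below. The 24 became 12 without mouse 607, 14 without 657 and 15 without 638 or 658. In these fits 24.3%, 23.5%, 23.8% and 24.3% of all genes were called. The share of 26.1% was not tested against that of the members. The 5 ribosomal proteins with other symbols all had fold changes below 0 (median -0.44) and summed to 211 ± 50.3 RPM in C/C and 296 ± 2.45 in T/T mice, without overlap. Of them Chchd1 alone was called, lower at 66.1 ± 23.4 against 194 ± 72.5 (log2 fold change -1.52 ± 0.33, limma adjusted p = 0.00457), and Dap3, which binds GTP in the small subunit, had -0.49 ± 0.27. Of 12 translation factors 2 were higher and 1 lower, with Mtif3, an initiation factor, at 0.72 ± 0.20 and Mtfmt, which formylates the initiator methionyl-tRNA, at -1.81 ± 0.44 (limma adjusted p of 0.0161 and 0.00857). Of 25 assembly factors 1 was higher and 5 were lower. Eral1, a chaperone of the small subunit's RNA, rose by 0.64 ± 0.15, and Mtg1, a GTPase of large subunit assembly, fell by 2.14 ± 0.54 on the log2 scale (limma adjusted p of 0.00825 and 0.0105).

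Of 20 tRNA charging enzymes of mitochondria 4 were higher and 2 lower, led by Nars2 (0.81 ± 0.26) and Ears2 (0.79 ± 0.26), with limma adjusted p-values of 0.0321 and 0.0333. The call of Nars2 was lost without mouse 590, 599, 607, 608, 638 or 658 (0.67 to 0.80) and that of Ears2 without mouse 593, 599, 607, 638, 657 or 658 (0.68 to 0.79). Of 19 genes for expression of the mitochondrial genome 4 were lower and none higher. Fastk, which stabilises a mitochondrial transcript, had 35.4 ± 21.1 in C/C and 143 ± 32.3 in T/T mice (log2 fold change -2.16 ± 0.36, limma adjusted p = 0.00141), and Mterf2 had -1.70 ± 0.41. Of 11 regulators of mitochondrial biogenesis 2 were higher and 2 lower, with Nfe2l2, the regulator of antioxidant genes, at 0.90 ± 0.19 and Esrra, a nuclear receptor for respiratory genes, at -0.82 ± 0.23 (limma adjusted p of 0.00458 and 0.0182). The call of Esrra was lost without mouse 599 (-0.67) or 607 (-0.74). The listed regulators summed to 428 ± 94.0 RPM in C/C and 309 ± 28.5 in T/T mice, without overlap. In liver none of the 95 genes tested from these lists was called, beside 0% of all genes tested.

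Other large gene families had medians below 0 in C/C WAT. Over all genes tested 15.1% were higher and 17.0% lower, shares that stand beside the counts of each family. Cytosolic ribosomal protein genes stood at a median of -0.57 (log2 fold change), with 13 higher (16.9%) and 35 lower (45.5%) of 77. Subunits of respiratory complex I, the first enzyme of the respiratory chain, had -0.50, with 7 higher and 20 lower of 38. Nuclear subunits of complexes II to V had -0.48, with 5 and 16 of 43. The members, at -0.09, were nearer to the 0.02 of all genes. The summed levels did not all follow these medians. Cytosolic ribosomal protein genes summed to 29991 ± 13629 (SD, n = 4) RPM in C/C and 21828 ± 3222 (SD, n = 5) in T/T WAT, and complex I subunits to 9346 ± 308 and 8692 ± 844, higher means in C/C mice with overlapping libraries. Complexes II to V summed to 12514 ± 312 and 14283 ± 1491.

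**Figure D4:**
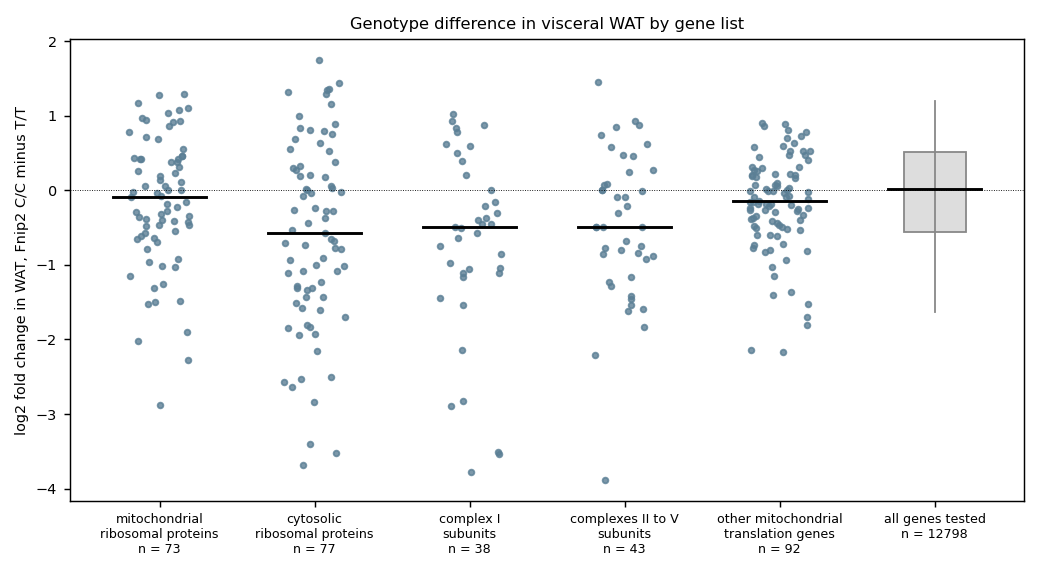
Log2 fold change in WAT (y axis) of each tested gene in 5 lists, with 1 point per gene and a line at the median, beside all 12798 genes drawn as the 5th to 95th percentile (line), the middle 50% (box) and the median. The members spread from -2.88 to 1.30 around a median of -0.09, while the cytosolic ribosomal and respiratory lists have medians between -0.57 and -0.48.

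Promoter sequence was not used in the choice by symbol. Windows from 250 bases before to 50 bases after the annotated start were taken from RefSeq (build GRCm38.p6) and were found for 68 of the 77 members. Exact letters were searched on both strands. The ETS letters CCGGAAG, which GABP binds, were in a window of 36.8% of members, against 19.9% of 9452 genes tested in WAT and 9.93% of all 27025 genes of the table. The YY1 letters AAGATGGC were in 17.6%, 5.31% and 3.19%, the full NRF1 palindrome, whose letters are the capitals in the last stretch below, in 4.41%, 2.32% and 1.07%, and the shorter TGCGCA, which can overlap it, in 30.9%, 15.8% and 8.79%. The GC box GGGCGG was in 34 of the 68 members and in 69.2% of genes tested in WAT, the E-box CACGTG in 7.35% and 11.8%, the longer CLEAR element, the E-box with GT before it and AC after it, in 2.94% and 0.804%, and the cAMP element TGACGTCA in 2.94% and 3.50%. Members of both directions held the ETS letters, 8 of 17 with a window among those lower and 5 of 12 among those higher in C/C WAT. The YY1 letters were in 3 of 17 and 3 of 12. Of 39 members not called, 12 held the ETS and 6 the YY1 letters. TGCGCA was in 3 lower, 5 higher and 13 not called members, and the GC box in 7, 3 and 24. The E-box was in 1, 0 and 4, and the CLEAR and cAMP elements each in 0, 0 and 2. These small counts were not tested. A match describes these letters and does not show a bound factor.

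The stretches around the ETS letters are shown, in capitals and on the strand of the gene, for the 2 members with the largest falls and the 2 with the largest rises among called members that hold them.
Mrpl22 (chr11:58171601-58171627, plus strand): ttttccggtcCCGGAAGccggcctcgg
Mrpl33 (chr5:31613938-31613964, plus strand): cgcgcatgccCCGGAAGtagtcgttga
Mrps18a (chr17:46110968-46110994, plus strand): cacccctgctCCGGAAGcggaagtgca
Mrps12 (chr7:28741804-28741830, minus strand): aggaggaaccCCGGAAGgggctggagg
The same choice for the YY1 letters gave Mrps11, Mrpl36, Mrps24 and Mrps18a, where the first pair holds them on the opposite strand, so that the capitals read GCCATCTT.
Mrps11 (chr7:78783014-78783041, plus strand): tacgggcgccGCCATCTTtctgtcttcc
Mrpl36 (chr13:73330969-73330996, plus strand): gtgaccttacGCCATCTTtcttcctggc
Mrps24 (chr11:5707652-5707675, minus strand): gcgccggcccAAGATGGCgtggtc
Mrps18a (chr17:46111005-46111032, plus strand): ggtgcgttccAAGATGGCggccctcagg
Of these, Mrps18a, which rose in C/C WAT, held both the ETS and the YY1 letters within its window. Mrpl36 fell by 1.26 ± 0.24 on the log2 scale (limma adjusted p = 0.002465) and was named here for its motif. The full NRF1 palindrome was found in 3 members, Mrpl32, Mrpl39 and Mrpl9, of which Mrpl39 alone was called in WAT. The stretch of Mrpl39 is shown for that reason.
Mrpl39 (chr16:84735350-84735379, minus strand): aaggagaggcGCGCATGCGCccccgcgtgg

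**Figure D5:**
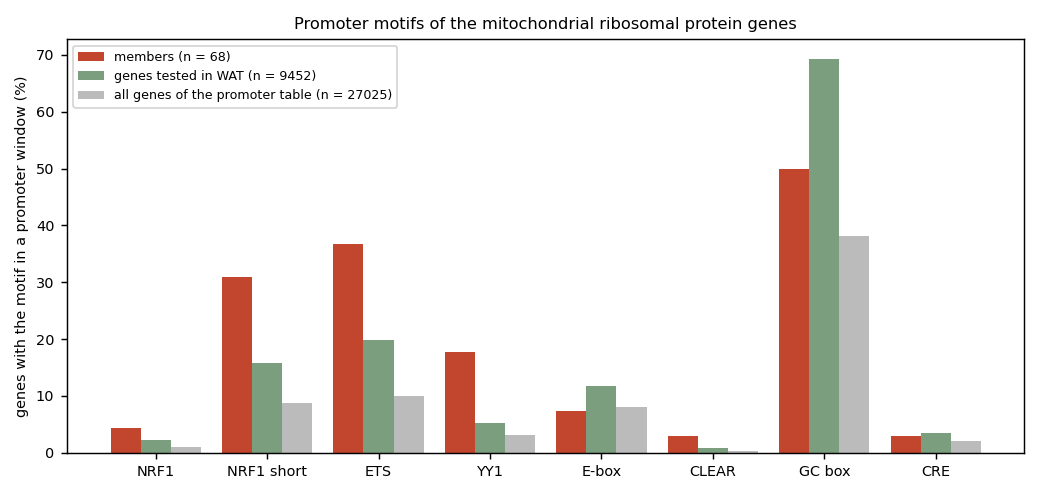
Share of genes (y axis, %, starting at 0) whose promoter window holds each motif (x axis; NRF1 short is TGCGCA and CRE the cAMP element), for 68 members, 9452 genes tested in WAT and 27025 genes of the promoter table. The ETS letters are in 36.8% of members against 19.9% of genes tested in WAT, and the GC box is in 34 of 68 members against 69.2%.

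Among the regulators that bind these letters, Gabpa had a log2 fold change of 0.87 ± 0.32 in C/C WAT (limma adjusted p = 0.0532), Nrf1 -0.52 ± 0.26 (0.132) and Yy1 0.21 ± 0.16 (0.35), and none passed the threshold. Gabpa passed under 6 of the 19 alternatives, among them without mouse 599 (1.124) or 608 (1.01), and Nrf1 passed with library weights. They were named after their values were seen.

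Members at the lower limit were treated as follows. In WAT, Mrpl23, Mrps11 and Mrpl22 lay just above a mean of 10, at 11.7, 14.4 and 15.2, and Mrps21, Mrps28 and Mrps36 lay below it, at 6.75, 4.45 and 2.82. Mrpl23 had 23.5, 6.55, 5.42 and 11.7 in C/C and 16.4, 4.86, 8.93, 9.92 and 18.2 in T/T mice. Mrps18b, a small subunit protein, had 1, 0, 1 and 1 reads in C/C and 2, 2, 2, 3 and 8 reads in T/T WAT, too few for a fold change. In liver, Mrps28 (21.3), Mrps10 (23.7) and Mrpl9 (24.4) were the lowest members tested, and Mrps36 (4.42) and Mrps18b (1.51) were not tested. The annotated transcript (longest protein-coding transcript in GENCODE vM21) had a median length of 1219 bases for members lower and 1460 for members higher in C/C WAT. It was 1415 for members not called and 3249 for all genes tested. Over all genes called the order was the same, with 2661 bases for those lower and 3684 for those higher.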

How the data were processed

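RNA of liver (250 ng) and visceral WAT (500 ng) was made into QuantSeq 3′ FWD libraries. The authors deposited 1 table per tissue of normalized counts (a signal in which each library's counts were divided by its size factor), with 4 runs per mouse combined. The submitters' notes name FastQC 0.11.9, HISAT2, SAMtools 1.12, HTSeq, DESeq2 and GRCm39, and counting options are not given in the sources used here. Division by each library's smallest step recovered whole reads (tolerance 0.01). Totals cover reads and not molecules. In the WAT table, 1 column that no label describes was left out.

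Genes averaging a normalized count of 10 or more were fitted as log2(value + 1) with limma 3.58.1 (lmFit, eBayes with trend and robust options, R 4.3.3), Fnip2 C/C minus Fnip2 T/T, each tissue alone, with Benjamini-Hochberg adjustment over all genes and calls at an adjusted p under 0.05. Differences between tissues were an interaction contrast. The labels do not give the animals' litters. Liver and WAT of 1 number come from 1 mouse, and their deviations from the group means correlated at -0.203 to 0.156 over 10404 genes (consensus -0.114). RPM were computed from recovered reads, and 0.1 was added in the ratio between tissues. Correlations used scipy 1.17.1.

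The members, lists and tests were chosen with earlier results of these data known. Named in WAT were the 8 called members with the largest fall and the 8 with the largest rise, the lowest p-values (4 in liver, 3 in the interaction, 2 per other list), members near the mean of 10, the most and least even, and 7 set by function. Alternatives were pseudocounts of 0.5 and 10, no minimum mean or 50, quantile normalization, equal totals, library weights, a threshold of 0.1, a covariate splitting the mouse numbers (below 610 or above 630), edgeR 4.0.16 and DESeq2 1.42.0 on recovered reads, the mouse as a block, and each mouse left out. The fits were tested on simulated data. Promoter windows came from RefSeq (GRCm38.p6) and transcript lengths from GENCODE vM21, and both serve for letters and lengths only, since the counts were made on another build.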

Additional observations from a re-analysis of the deposited data

Results flagged for a closer look

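Among 106 groups of 4 or 5 libraries that were looked at, 5 had 1 library far from the others by Dixon's criterion at 95%. Chance gives about 1 in 20 groups. In T/T WAT, Mrps30 was at a normalized count of 81.7 in mouse 608, against 128 to 138 in the other 4 mice. In T/T liver, Mrpl50 was at 101 in mouse 657, against 143 to 159. The summed ovary markers were at 5782 RPM in the C/C WAT library of mouse 593, against 18.95 to 20.3 in the other 3 C/C libraries, and at 141 in the C/C liver of mouse 638, against 174 to 184. In liver that sum came mainly from Cyp17a1 (323 to 3252 reads per library) and Inhba (70 to 244), and the T/T livers lay at 89.9 to 461 RPM. The ribosomal RNAs of the mitochondrial genome were at 19410 RPM in the C/C liver of mouse 591, against 6164 to 9079.

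The genotype effect differed between WAT and liver by limma's interaction contrast for 31 of 73 members, beside 29.2% of all genes tested in both. The 3 lowest p-values were those of Mrpl33, with a difference of -2.05 (log2 fold change of -2.03 in WAT and 0.03 in liver), Mrps24, with 1.17 (1.17 and 0.00), and Mrpl18, with -1.24 (-1.31 and -0.07).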

How the results depend on the processing

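In WAT 23 of the 33 called members (13 higher and 10 lower) passed with the same direction under all 19 alternatives at the threshold of 0.05. No called member changed direction in any of them. The count of members called was 28 to 37 with all mice (40 at a threshold of 0.1) and lay between 24 and 33 when each mouse was left out. At the threshold of 0.05 the share of all genes called moved as well. It ran from 21.4% with no minimum mean to 39.5% with a minimum mean of 50, and from 23.5% to 33.3% with a mouse left out. Members higher numbered 13 to 17 and members lower 11 to 19 with a mouse left out: without mouse 638 there were 12 lower, and without mouse 658 there were 11. Library weights turned the split to 20 higher and 17 lower. The other translation genes, 24 in WAT, numbered 12 to 24 with a mouse left out, namely 12 without mouse 607, 14 without 657, 15 without 638 and 15 without 658. With a minimum mean of 50 they numbered 16, and no minimum left 28 members called. In liver the count was 0 under every alternative run. The difference between tissues was called for 22 to 35 members with a mouse left out, with 11 to 15 above 0 and 10 to 20 below. In those fits 20.7% to 32.2% of all genes were called. The count below 0 was 10 without mouse 607 and 11 without 638 or 658. With the replicate block (mouse) the count was 31, and in the 6 mice with both tissues, again paired through the block, it was 14, with 5 above 0 and 9 below, a fit of fewer libraries. The shares of all genes called were 26.5% and 12.3%. No other comparison could be paired, because within a tissue each mouse gave 1 library. Of the 31 members called there, 9 (3 above 0 and 6 below) passed under all 22 alternatives. Of the values of members named in the text, 644 kept direction and side of the threshold, 41 lost the call (8 of Mrpl39, 3 of Mrps11, 9 of Mrps30, 11 of Mrpl11, 5 of Mrpl52 and 5 of Mrpl54), and 3 gained it, Mrpl12 with library weights (0.61) and Mrpl24 with quantile normalization (-0.56) and without mouse 590 (-0.60). Mrpl23, not called, changed sign with quantile normalization (0.18) and with mouse 593, 599, 607 or 658 left out (0.08 to 0.19, within a range of -0.45 to 0.19 over all mice left out). Of the values of other named genes, 276 kept their side, 15 lost the call (6 of Nars2, 7 of Ears2 and 2 of Esrra) and 7 gained it (6 of Gabpa and 1 of Nrf1). With fewer than 10 normalized counts on average, 4 members in WAT and 2 in liver were not tested.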
